A study of Mus musculus with 66 samples.

Results

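Gene expression in the rectal mucosa of mice at experimental day 9 was compared with that at day 6. Dextran sulfate sodium (DSS) is a polymer that injures the colonic epithelium when given to mice, and here 3% DSS was given for 6 days from day 0. Day 6 is therefore the end of the exposure and day 9 lies 3 days into recovery. The comparison used the 6 libraries labelled as rectal mucosa from those days, of 66 libraries from 19 mice in the series. Mice 8, 9 and 10 were killed at day 6 and mice 11, 12 and 13 at day 9, so each library came from a different animal and no mouse was followed over time. All 6 were C57Bl/6 mice bought at 6 weeks of age. Both groups had been exposed to DSS, and uninjured mice of day 0 (4 rectal libraries) are used below only to give a level. The mucosal surface was cut from full-thickness tissue before RNA isolation, and stranded mRNA libraries gave single-end reads of 75 bases. The labels give no cage, sequencing run or library batch, so effects of those cannot be told apart from the effect of day.

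The colonic epithelium is renewed from stem cells at the base of its crypts. Their daughters divide in the lower crypt, then mature into absorptive colonocytes, mucus-secreting goblet cells, hormone-secreting enteroendocrine cells and chemosensory tuft cells as they move to the surface. After DSS the crypts are damaged and partly lost, neutrophils and monocytes enter the mucosa, and the epithelium is rebuilt once the exposure stops. The rectum borders the stratified squamous epithelium of the anal canal, which can grow into the distal colon after such injury. The genes below are ordered by these roles, from the dividing crypt to mature epithelium, immune cells, stroma and the neighbouring squamous tissue.

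Values are TPM, a length-adjusted share of each library's transcripts that sums to the same total, given in the order of mice 8, 9 and 10 for day 6 and mice 11, 12 and 13 for day 9. Changes are differences of log2(TPM + 1), day 9 minus day 6, with the standard error (SE) of limma's fit over 3 mice per day. The added 1 shrinks the change of genes with low TPM. A gene was tested if at least 3 of the 6 libraries reached 1 TPM. Genes under 1 TPM in every day 6 library passed only through day 9, and leaving out a day 9 mouse removed them from the test. Examples are Axin2, Msln, Nox1, Il22, Il17f, Mmp7, Dsg3, Eda2r, Polr1a, Polr1b and Stfa3. A gene was called at an adjusted p (limma, Benjamini-Hochberg over all genes tested) under 0.05, and rose or fell is written of called genes only. Sequencing depth cannot be read from TPM and is unknown here, and no counting interval is given. Gene positions are from GENCODE M21 (GRCm38, the sequence of mm10).

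Markers of the section were read first. The colonocyte gene Car1 ranged from 1097 to 1190 TPM in rectum at day 9 and from 5205 to 6694 TPM at day 6, against at most 15.1 TPM in the anal sections of those days. Hoxb13, a homeobox gene of the hindgut, ranged from 33.2 to 138 TPM in these rectal libraries and was at most 3.65 TPM in the anal ones. In mid-colon Hoxb13 ranged from 80 to 122 TPM at day 6 and 51.3 to 70.8 TPM at day 9. Car1 there ranged from 3644 to 5641 TPM and 839.5 to 1736 TPM. These markers therefore set rectum apart from anus but not from mid-colon. Between 11912 and 13234 genes reached 1 TPM per library. The 10 most abundant genes held 25.8 to 26.8% of the TPM at day 6 and 15.2 to 17.4% at day 9. Some libraries stood apart within their group. Mouse 10 of day 6 had the highest neutrophil, cytokine, metalloproteinase and haemoglobin values of its day. Mouse 11 of day 9 had low interferon-stimulated and cytokine genes and the most squamous keratin, mouse 12 had little smooth muscle RNA, and mouse 13 held more skeletal muscle and B cell RNA than the others. The plot of summed list levels shows several of these differences, and the results that rest on them are given below with and without the library.

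**Figure D1:**
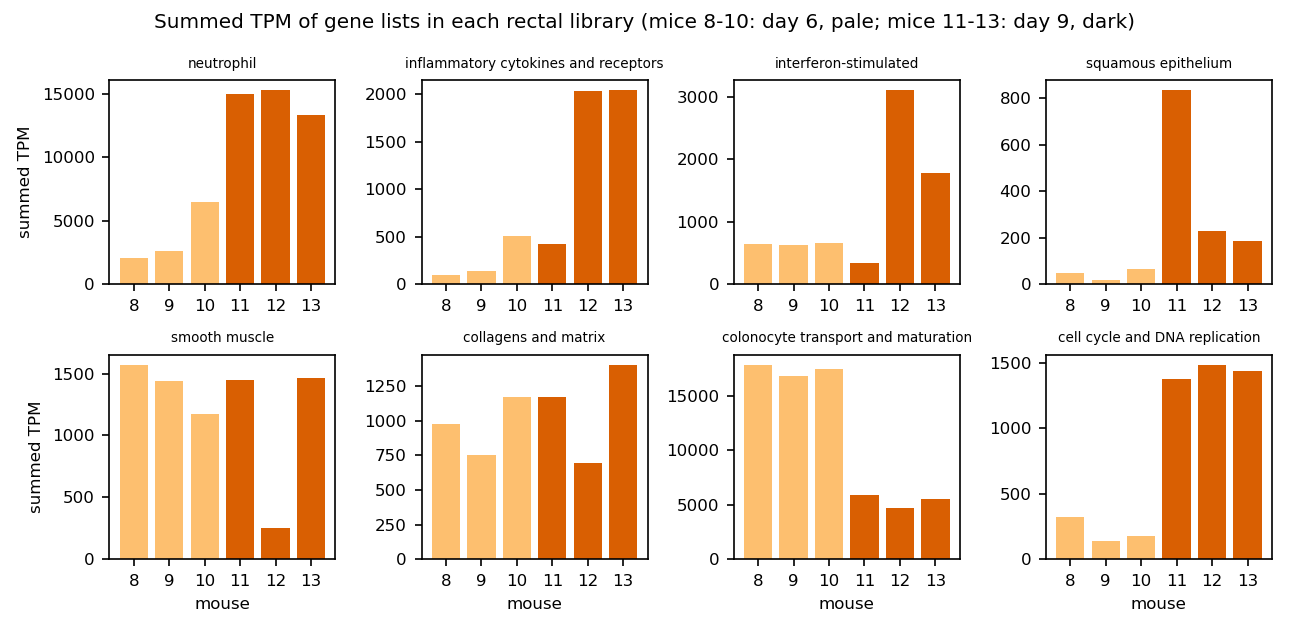
Summed TPM (vertical axis, linear, from 0) of 8 gene lists in each of the 6 rectal libraries, one bar per mouse, with day 6 pale and day 9 dark. Colonocyte and cell cycle sums do not overlap between the days, neutrophil sums of 2090 to 6456 TPM at day 6 lie below 13360 to 15330 TPM at day 9, interferon-stimulated sums are 340 TPM in mouse 11 against 3116 and 1786 TPM in mice 12 and 13, and the smooth muscle sum is 254 TPM in mouse 12 against 1171 to 1573 TPM in the other mice.

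Of 12831 genes tested, 4866 (37.9%) were called, 4115 (32.1%) higher and 751 (5.85%) lower at day 9. That split depended on the scaling. TPM shares are bounded by the total, and the most abundant genes took a smaller share at day 9; the median change over all genes was 0.37. With TMM factors, which align the bulk of the genes between libraries, the median was -0.004 and 4286 genes (33.4%) were called, 2196 (17.1%) higher and 2090 (16.3%) lower. Centring each library on its median called 4445 (34.6%), 1768 higher (13.8%) and 2677 lower (20.9%). The calls were nested. All 2196 genes higher with TMM factors were also higher on TPM, all 751 genes lower on TPM were also lower with TMM factors, 1919 higher calls were lost and 1339 lower calls were gained. Among genes that changed at least 4-fold, 538 rose and 75 fell on TPM, of which 295 and 75 passed both the call and the fold with TMM factors. Directions below are on TPM unless stated, and "on both scalings" means called the same way with TMM factors.

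**Figure D2:**
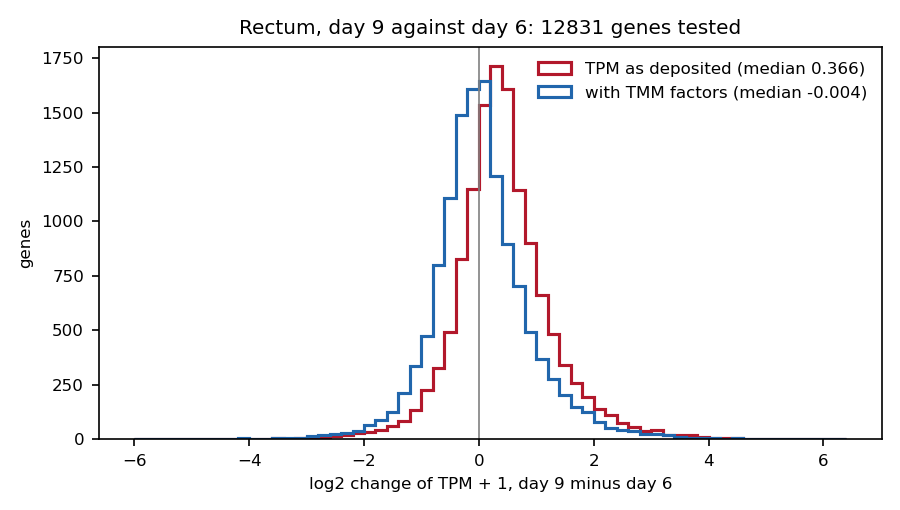
Histogram of the log2 change of TPM + 1, day 9 minus day 6 (horizontal axis), for the 12831 genes tested in rectum (vertical axis, number of genes per bin). The red outline is TPM as deposited, with a median of 0.366, and the blue outline is the same change with TMM factors, with a median of -0.004, so the red outline lies to the right of the blue one.

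Genes of 32 lists, 408 genes in all, were then read against this background, and 365 of them were tested. Members and lists were chosen with earlier results of these data known. A list share beside that of all genes is therefore a description, not a test. For the list counts below, the shares over all genes tested are 32.1% higher and 5.85% lower on TPM. With TMM factors they are 17.1% higher and 16.3% lower. The days did not overlap in 42.4% of all genes tested with day 9 higher, and in 9.1% with day 9 lower. A lack of overlap in a single gene is to be read beside these shares. Without mouse 8, 9 or 10, 3111 of 12643, 2786 of 12673 and 3499 of 12678 genes tested were called higher. Without mouse 11, 12 or 13, it was 3369 of 12299, 4092 of 12400 and 2477 of 12274. The lists with the highest median changes were cell cycle, neutrophil, neutrophil-recruiting chemokines, squamous epithelium and ribosome biogenesis, each above 2.3. The lowest medians were those of colonocyte and goblet cell genes.

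**Figure D3:**
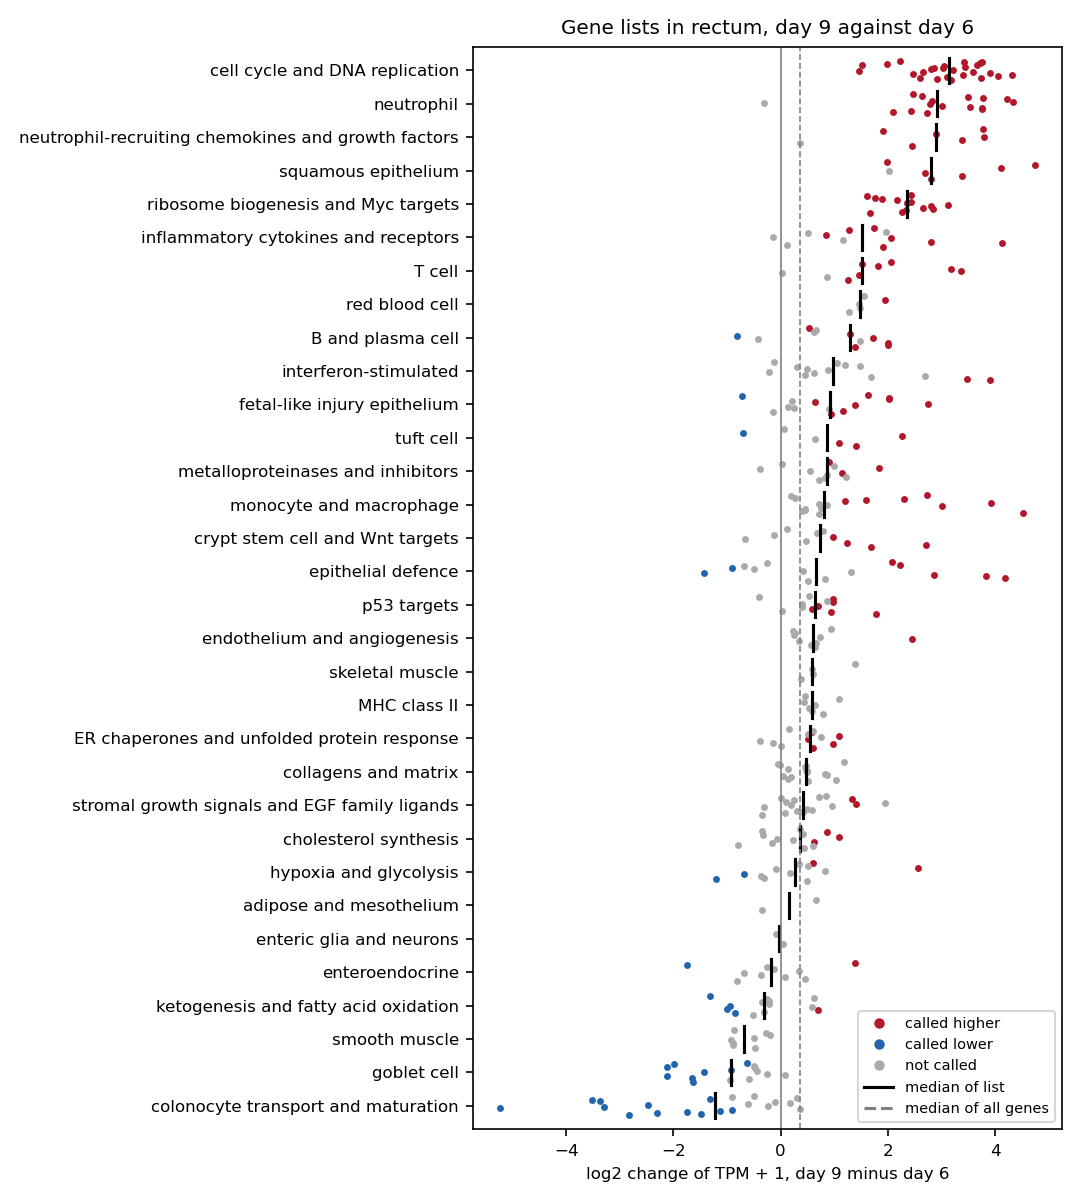
Log2 change of TPM + 1, day 9 minus day 6 (horizontal axis), of every tested member of 32 gene lists (rows, ordered by median); red points were called higher, blue points lower and grey points not called by limma with Benjamini-Hochberg adjustment. Black bars mark each list's median and the dashed line the median of all genes, 0.366; list medians run from 3.13 for cell cycle genes to -1.23 for colonocyte genes.

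All 26 genes of the cell cycle and DNA replication list rose, where 32.1% of all genes did, with a median change of 3.13 beside 0.37 over all genes, and each kept its call with TMM factors and in all 6 fits that left out one mouse. The list's summed level was 320, 138 and 180 TPM at day 6 and 1376, 1488 and 1437 TPM at day 9. Ccnb1 (chr13:100778650-100786570), the cyclin that starts mitosis, was at 8.92, 1.5 and 2.89 TPM at day 6 and 74.8, 118 and 83.1 TPM at day 9 and had the largest change (log2 change 4.31, SE 0.46, adjusted p = 0.000637). Its kinase partner Cdk1 (chr10:69335146-69352938) was at 20.8, 4.12 and 6.67 TPM at day 6 and 92.4, 142 and 111 TPM at day 9 (log2 change 3.59, SE 0.48, adjusted p = 0.00112). Mki67, which encodes the proliferation marker Ki-67, was at 8.02, 1.32 and 1.84 TPM at day 6 and 51.3, 49.6 and 45.2 TPM at day 9 (log2 change 3.67, SE 0.46, adjusted p = 0.000955). In each of these genes mouse 8 was the highest of day 6 and still lay below every day 9 mouse. Genes that act at the start of DNA replication, the Mcm2, Mcm3, Mcm5 and Mcm6 subunits of the replicative helicase, rose by 2.86 to 3.44. Rrm2, the ribonucleotide reductase subunit that limits nucleotide supply, rose by 3.72, and the replication clamp Pcna by 1.52 (118, 83.4 and 113 TPM at day 6 and 334, 289 and 278 TPM at day 9). The smallest change was that of E2f1, a transcription factor of the G1 to S transition, at 1.46. In bulk tissue a larger share of dividing cells and more of these transcripts per cell cannot be told apart.

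Because the members moved together, their promoters were read. RefSeq (GRCm38.p6) held promoters of 23 of the 26 genes, and 250 bases before the start site were searched on both strands for 3 short motifs of cell cycle promoters. The CCAAT box, bound by NF-Y (letters CCAAT or ATTGG), was present in 19 of 23 promoters (82.6%), against 33.8% of 32851 mouse promoters. The cell cycle homology region (TTTGAA or TTCAAA), through which the DREAM complex acts, was present in 7 (30.4%), against 16.0% of all promoters. The 8-letter E2F motif searched (GGCGGGAA or TTCCCGCC) was found in none of the 23 and in 1.86% of all promoters. Other forms of the E2F site were not searched, so this count does not show that these promoters lack E2F sites. A match describes letters only and does not show binding. The promoters of Cdk1 (chr10:69352913-69353162, minus strand) and of Ccnb2 (chr9:70421555-70421804, minus strand), the mitotic cyclin at 6.05, 1.09 and 1.95 TPM at day 6 and 39.6, 30.6 and 39.2 TPM at day 9, are shown because both hold CCAAT boxes and the homology region; both motifs are in capitals.
Cdk1: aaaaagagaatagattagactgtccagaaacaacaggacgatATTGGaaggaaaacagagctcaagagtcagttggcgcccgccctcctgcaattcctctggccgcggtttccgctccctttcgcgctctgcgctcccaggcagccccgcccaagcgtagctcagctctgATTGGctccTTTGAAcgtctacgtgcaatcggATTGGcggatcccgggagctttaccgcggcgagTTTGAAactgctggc
Ccnb2: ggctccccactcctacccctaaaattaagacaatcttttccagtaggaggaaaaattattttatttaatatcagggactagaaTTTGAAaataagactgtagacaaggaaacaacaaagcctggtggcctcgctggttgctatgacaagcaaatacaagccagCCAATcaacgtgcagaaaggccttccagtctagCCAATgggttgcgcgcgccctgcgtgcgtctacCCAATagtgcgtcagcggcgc

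The ribosome biogenesis and Myc target list rose with them. All 14 members were called higher on both scalings, and no call was lost in any leave-one-out fit that tested the gene; the median was 2.35 on TPM and 1.92 with TMM factors. Nop56 (chr2:130274430-130279313), a core protein of the particles that modify ribosomal RNA, was at 28.3, 22.5 and 20.9 TPM at day 6 and 205, 228 and 209.9 TPM at day 9 (log2 change 3.12, SE 0.16, adjusted p = 0.000346). The 3 mice of each day differed little and the groups were far apart. Npm1, the nucleolar chaperone nucleophosmin, was at 318, 254 and 251 TPM at day 6 and 1290, 1780 and 1378 TPM at day 9 (log2 change 2.43, SE 0.18, adjusted p = 0.000395). Myc, the transcription factor that drives many of these genes, was at 2.88, 1.36 and 2.25 TPM at day 6 and 14.2, 19.2 and 35.1 TPM at day 9 (log2 change 2.85, SE 0.34, adjusted p = 0.000854), with its highest value in mouse 13. Odc1, the first enzyme of polyamine synthesis, rose by 2.17, and the RNA polymerase I subunits Polr1a and Polr1b, both under 1 TPM at day 6, by 1.88 and 1.76.

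Targets of p53, the DNA damage response factor, did not move as a block. Of 12 members 6 rose on TPM (beside 32.1% of all genes) and 3 of these on both scalings, and the median was 0.64. Eda2r, among the 6, passed the filter only through day 9 and lost its call without mouse 8 or 9. Aen, an apoptosis-linked nuclease, was at 3.73, 5.37 and 4.3 TPM at day 6 and 17.1, 14.9 and 21.2 TPM at day 9 (log2 change 1.78, SE 0.22, adjusted p = 0.000864). Sesn2 and Phlda3 were the other calls held on both scalings, with changes of 0.98 and 0.97. The arrest gene Cdkn1a (142, 185 and 166 TPM at day 6 and 149, 282 and 239 TPM at day 9, log2 change 0.40, SE 0.24, adjusted p = 0.226) and the p53 inhibitor Mdm2 (0.41, adjusted p = 0.0792) were not called.

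Of 14 crypt stem cell and Wnt target genes 10 were tested, 4 rose and none fell on TPM, with a median of 0.73. Of all genes tested, 32.1% were called higher, so this share was near the background. Cd44, a Wnt target and adhesion receptor found on crypt cells and leukocytes, was at 7.24, 6.16 and 19.6 TPM at day 6 and 66.7, 66 and 75.2 TPM at day 9 (log2 change 2.72, SE 0.37, adjusted p = 0.00119). Axin2, a feedback inhibitor induced by Wnt signalling, was at 0.272, 0.121 and 0.0647 TPM at day 6 and 2.57, 2.35 and 3.29 TPM at day 9 (log2 change 1.69, SE 0.19, adjusted p = 0.000747). No library of one day overlapped the other in either gene, beside 42.4% of all genes in that direction. Ephb2, a guidance receptor of the lower crypt, rose by 1.23 on both scalings, and Lrig1, a brake on growth factor receptors, by 0.97 on TPM only (adjusted p = 0.0607 with TMM factors, and up to 0.0652 without mouse 13). Lgr4, the R-spondin receptor, was not called on TPM at -0.67 and was lower with TMM factors at -1.10 (adjusted p = 0.00819). The stem cell receptor Lgr5 was at most 0.481 TPM in all 6 libraries and was not tested. Ascl2, the stem cell transcription factor, was listed at 0 to 0.0743 TPM at day 6 and 0.942 to 1.69 TPM at day 9, and missed the filter of 1 TPM in 3 libraries. Notum was listed at 0 in every library.

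Injured colonic epithelium can adopt a fetal-like state, and 14 genes linked to that state or to wound-associated epithelium gave a mixed picture. On TPM 8 rose and 1 fell (beside 32.1% and 5.85% of all genes), with a median of 0.92. Of the 8, 3 kept the call with TMM factors, where 17.1% of all genes were higher, and in each leave-one-out fit that tested them. Leaving out mouse 8 or mouse 9 left 5 rises and leaving out mouse 13 left 3. Il33 and Msln were among the 3 that kept their call. Msln was under 1 TPM in every day 6 library, so it passed the filter only through day 9. It was tested in 3 of the 6 fits that left out a mouse. Il33, an alarmin of epithelial and stromal cells, was at 9.55, 6.23 and 20.8 TPM at day 6 and 66.5, 76.8 and 94.4 TPM at day 9 (log2 change 2.75, SE 0.37, adjusted p = 0.00119). Msln, which encodes mesothelin, was at 0.668, 0.653 and 0.722 TPM at day 6 and 8.41, 5.95 and 3.9 TPM at day 9 (log2 change 2.03, SE 0.26, adjusted p = 0.00104). Msln was highest in mouse 11, the library with the most squamous keratin, and the part of squamous cells in its values was not tested. Ly6a, which encodes Sca-1, the best known marker of the fetal-like state, was not called (3984, 4081 and 4972 TPM at day 6 and 3684, 7018 and 4766 TPM at day 9, log2 change 0.20, SE 0.24, adjusted p = 0.541), and its values at both days lay above the 550.1 to 738 TPM of day 0. Plaur (2.02), Il1rn (1.39), Cldn4 (1.16), Anxa1 (0.94) and Krt7 (0.65) rose on TPM and were not called with TMM factors. S100a6, a calcium-binding protein, fell by 0.71 on both scalings (8615, 8395 and 7944 TPM at day 6 and 5999, 4516 and 4811 TPM at day 9), with an adjusted p of 0.0511 without mouse 8. The YAP target genes Ctgf and Cyr61 were not called, at 0.25 and 0.14.

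Genes of mature colonocytes went the other way. Of 20 transport and maturation genes, 12 fell and none rose on TPM, beside 5.85% of all genes that fell, and 16 fell with TMM factors. The groups did not overlap in 14 members, beside 9.1% of all genes in that direction. The median change was -1.23. Their summed level was 17880, 16870 and 17470 TPM at day 6 and 5856, 4651 and 5487 TPM at day 9. Car1 (chr3:14766216-14808368), a carbonic anhydrase among the most abundant colonocyte transcripts, was at 6694, 5247 and 5205 TPM at day 6 and 1190, 1097 and 1168 TPM at day 9 (log2 change -2.30, SE 0.16, adjusted p = 0.000362). Slc26a3 (chr12:31390871-31473917), the chloride and bicarbonate exchanger of the colonic surface, was at 561, 882 and 609.6 TPM at day 6 and 112, 38.6 and 60.5 TPM at day 9 (log2 change -3.37, SE 0.36, adjusted p = 0.000638). Every day 9 library lay below every day 6 library in both. Cyp2c55, a cytochrome P450 whose close relatives in the Cyp2c family make its assignment less certain, had the largest fall of the list (356, 294 and 434 TPM at day 6 and 36, 1.53 and 8.18 TPM at day 9, log2 change -5.23, SE 0.80, adjusted p = 0.00195). Guca2a, the guanylin peptide that controls fluid secretion, was at 1734, 2342 and 1287 TPM at day 6 and 319, 121 and 141 TPM at day 9 (log2 change -3.30, SE 0.37, adjusted p = 0.00071). Aqp8, a water channel, was at 361, 546 and 902 TPM at day 6 and 38.9, 105 and 117 TPM at day 9 (log2 change -2.83, SE 0.46, adjusted p = 0.00239), and Slc37a2, a sugar phosphate transporter, fell by 3.52. Slc5a8 and Cdhr5 fell on both scalings but lost the call on TPM when 1 mouse was left out, at an adjusted p of up to 0.082 without mouse 8, 9 or 13 and 0.054 without mouse 9.

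Not every gene of the mature surface fell. Krt20, the keratin of surface colonocytes, was at 849, 923 and 1126 TPM at day 6 and 809, 866 and 773 TPM at day 9 and was not called on TPM (-0.23, adjusted p = 0.258), while TMM factors gave -0.68 (adjusted p = 0.046). Vil1, the brush border protein villin, was not called on TPM either (-0.49, adjusted p = 0.0674) and was lower with TMM factors. The epithelial sodium channel subunits Scnn1b and Scnn1g and the calcium-activated channel regulator Clca4a were called on neither scaling. For Scnn1b the values were 8.9, 20.9 and 13.5 TPM at day 6 and 39, 4.78 and 18.5 TPM at day 9, so the days overlapped widely.

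Fatty acid oxidation, the route by which colonocytes burn butyrate, gave 4 falls and 1 rise among 13 tested genes on TPM. Of all genes, 5.85% fell and 32.1% rose. With TMM factors 10 members fell, beside 16.3% of all genes. The median was -0.31 on TPM and -0.75 with TMM factors. Cpt1a, which controls the entry of fatty acids into mitochondria, was at 60.3, 73.7 and 51 TPM at day 6 and 36, 24.4 and 35.1 TPM at day 9 (log2 change -0.94, SE 0.21, adjusted p = 0.0104). The coactivator Ppargc1a fell by 1.33 and the dehydrogenase Acadm by 0.85, the last not called without mouse 9 (adjusted p = 0.0583). Acat1 rose by 0.70 on TPM only. The subunits Hadha and Hadhb of the trifunctional protein were not called on TPM at -0.22 and -0.25 and were lower with TMM factors.

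Goblet cell genes fell as well, 8 of 15 on TPM (beside 5.85% of all genes) and 12 with TMM factors (beside 16.3%). None rose, the median was -0.93, and 5 fell when mouse 8 or mouse 9 was left out. Clca1 (chr3:145003817-145032776), a secreted mucus protein, was at 4503, 4465 and 4573 TPM at day 6 and 1196, 830.4 and 1103 TPM at day 9 (log2 change -2.13, SE 0.17, adjusted p = 0.000443). Tff3, the trefoil peptide of mucosal repair, was at 6506, 7876 and 9485 TPM at day 6 and 1984, 1680 and 2358 TPM at day 9 (log2 change -1.98, SE 0.20, adjusted p = 0.000546). Spink4 and Agr2, a protease inhibitor and the disulfide isomerase needed for mucin folding, fell by 2.11 and 1.64. Muc2, the gel-forming mucin, was at 1342, 1509 and 1196 TPM at day 6 and 633, 523 and 1052 TPM at day 9 (log2 change -0.93, SE 0.25, adjusted p = 0.0215), and its adjusted p was up to 0.0718 without mouse 8, 9 or 12. Zg16, a lectin of the mucus layer, fell by 0.62 with an adjusted p of 0.0445, and was up to 0.137 without mouse 8, 9, 10, 12 or 13. At day 0 Clca1 ranged from 1962 to 2529 TPM, Tff3 from 2760 to 3518 TPM and Muc2 from 510.4 to 643 TPM, so the day 6 values lay above the uninjured range and the day 9 values of Clca1 and Tff3 below it. The goblet cell transcription factors Spdef and Atoh1 were lower with TMM factors only, at -0.90 and -0.97.

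Among enteroendocrine genes, 10 of 12 were tested, 1 rose and 1 fell (beside 32.1% and 5.85% of all genes). Tac1, the substance P precursor made by enterochromaffin cells and neurons, was at 255, 176 and 147 TPM at day 6 and 40.5, 87.1 and 47.9 TPM at day 9 (log2 change -1.74, SE 0.31, adjusted p = 0.00377), and every day 9 value was below day 6. Tph1, the enzyme of gut serotonin synthesis, rose on TPM only (10.5, 4.39 and 5.08 TPM at day 6 and 28.7, 15.1 and 12.9 TPM at day 9, log2 change 1.38, SE 0.37, adjusted p = 0.0212; up to 0.0726 without mouse 9 or 10). The peptide hormone genes Pyy (0.33), Gcg (-0.37) and Insl5 (-0.69) were not called on TPM, and the last 2 were lower with TMM factors. Of the tuft cell list 6 of 10 genes were tested, 3 rose and 1 fell (beside 32.1% and 5.85% of all genes). Alox5, which is also a gene of myeloid cells, rose by 1.40 on both scalings, and neutrophil genes moved with it; the part of those cells was not tested. Rgs13 fell by 0.69, a call lost without mouse 12 or 13 (up to 0.104), and the defining tuft cell genes Trpm5 and Pou2f3 stayed below the filter, with Pou2f3 at most 0.315 TPM.

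The epithelial defence list, of antimicrobial and oxidant genes, gave 5 rises and 2 falls among 14 (beside 32.1% and 5.85% of all genes). When mouse 12 or mouse 13 was left out 3 rose, and Nox1 was not tested in those fits. Lcn2, the iron-scavenging lipocalin made by epithelium and neutrophils, was at 15.3, 21.9 and 91.7 TPM at day 6 and 491, 794 and 539.5 TPM at day 9 (log2 change 4.19, SE 0.57, adjusted p = 0.00124). Nos2, inducible nitric oxide synthase, was at 5.66, 4.58 and 17.5 TPM at day 6 and 29.7, 379 and 171 TPM at day 9 (log2 change 3.84, SE 0.85, adjusted p = 0.00954). Both had all day 9 values above day 6 (beside 42.4% of all genes), with mouse 11 the lowest of day 9. Nox1, the superoxide-producing NADPH oxidase of colonic epithelium, was at 0.238, 0.0991 and 0.0664 TPM at day 6 and 5.69, 8.81 and 7.49 TPM at day 9 (log2 change 2.86, SE 0.22, adjusted p = 0.000396), and day 0 ranged from 4.51 to 6.5 TPM, so the day 6 level lay far under both. Tgm2, a transglutaminase, rose on TPM by 2.07 (adjusted p = 0.0564 with TMM factors), as did Saa3 by 2.22 (adjusted p = 0.14 with TMM factors, and up to 0.136 without mouse 8, 9, 12 or 13). Pigr, the receptor that carries IgA across the epithelium, fell by 1.43 (1295, 1185 and 784 TPM at day 6 and 645, 256 and 375 TPM at day 9), and Saa1 by 0.90. Both falls were on both scalings, but the adjusted p of Pigr was 0.0508 without mouse 13 and that of Saa1 up to 0.0733 without mouse 10, 12 or 13. Saa1 and Saa2 are near-identical copies, so reads may be split between them. The dual oxidase genes Duox2 (0.51) and Duoxa2 (0.83) were not called.

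Neutrophil genes were called higher in 15 of 16 members, beside 32.1% of all genes, with a median of 2.92, and 13 that kept the call with TMM factors and in each leave-one-out fit. S100a8 (chr3:90668978-90670035), a subunit of calprotectin, which neutrophils carry in large amounts, was at 141, 305 and 1543 TPM at day 6 and 6975, 5487 and 4504 TPM at day 9 (log2 change 3.78, SE 0.73, adjusted p = 0.00542). Its partner S100a9 was at 194, 357 and 1816 TPM at day 6 and 5204, 6123 and 5734 TPM at day 9 (log2 change 3.50, SE 0.69, adjusted p = 0.00566). Mouse 10 was the highest of day 6 in both and still below day 9. Retnlg, a resistin-like gene of neutrophils, rose by 4.23, and Mmp8, neutrophil collagenase, by 4.33 (0.563, 0.944 and 6.08 TPM at day 6 and 88.9, 46.9 and 39.4 TPM at day 9). Every day 9 library held more of both than any day 6 library, beside 42.4% of all genes in that direction. Receptors that guide or activate these cells rose too, Fpr1 and Fpr2 each by 3.76 and Cxcr2 by 2.44. Cxcr2 lost its call without mouse 13 (adjusted p = 0.0519), and Csf3r, the receptor for granulocyte colony-stimulating factor, lost it without mouse 8, 9, 12 or 13 (up to 0.108) and with TMM factors (0.0963). Ly6g, the usual antibody target on neutrophils, was the exception (1692, 1846 and 2720 TPM at day 6 and 1400, 2078 and 1534 TPM at day 9, log2 change -0.31, SE 0.23, adjusted p = 0.317), and it ranged from 602 to 736 TPM at day 0, where S100a8 was at most 1.27 TPM. Ly6g belongs to a family of similar genes, so reads from relatives may be counted in it.

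Chemokines and growth factors that draw or form neutrophils showed the same direction in 6 of 7 tested members (beside 32.1% of all genes), with a median of 2.90. Of these, 3 kept the call with TMM factors and in each leave-one-out fit that tested them. Without mouse 13, 3 were called, and Il17f was not tested in that fit. Cxcl2 (chr5:90903871-90905938) was at 12.5, 35.1 and 75.8 TPM at day 6 and 98.3, 594 and 723 TPM at day 9 (log2 change 3.39, SE 0.83, adjusted p = 0.0141), Cxcl3 (chr5:90786103-90789600) at 2.73, 6.38 and 16.6 TPM at day 6 and 53, 171 and 139 TPM at day 9 (log2 change 3.79, SE 0.60, adjusted p = 0.00216) and Cxcl5 at 24.2, 13.2 and 50.7 TPM at day 6 and 166, 285 and 162 TPM at day 9 (log2 change 2.90, SE 0.44, adjusted p = 0.00186). All 3 were separate between the days (beside 42.4% of all genes), and Cxcl2 was not called without mouse 13 (adjusted p = 0.0637). Cxcl1 (chr5:90891241-90893115), which lies beside them, was not called (21.9, 8.22 and 95.6 TPM at day 6 and 30.4, 32 and 41.3 TPM at day 9, log2 change 0.37, SE 0.71, adjusted p = 0.712). Mouse 10 exceeded every day 9 mouse in Cxcl1, and without mouse 10 it was called higher (adjusted p = 0.0341). Ppbp was at 0.869, 0.596 and 9.26 TPM at day 6 and 203, 25.2 and 13.6 TPM at day 9 (log2 change 3.77, SE 1.02, adjusted p = 0.0212), carried mostly by mouse 11, and its adjusted p was up to 0.0679 without mouse 8 or 9. Csf3, granulocyte colony-stimulating factor, rose by 2.45 on TPM only and not without mouse 8, 9, 12 or 13. The T cell cytokine Il17f rose by 1.90 on both scalings. Il17f passed the filter only through day 9 and was tested in 3 of the 6 fits that left out a mouse.

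RefSeq held promoters of 7 of the 9 genes of this list, and the kappaB motif of NF-kappaB (the letters GGGA, any base, then TTTCC, on either strand) was present in 3 of the 7 (42.9%), against 0.356% of 32851 promoters. Those 3 were Cxcl1 (chr5:90890995-90891244), Cxcl2 (chr5:90903649-90903898) and Cxcl3 (chr5:90785851-90786100), all on the plus strand of GRCm38.p6. The 3 genes lie close together and hold identical motif letters, so they may not count as separate matches. None of the other promoters of this list held the motif. The 3 promoters are shown because the same letters precede 2 genes that rose and 1 that was not called. The capitals mark the motif.
Cxcl1: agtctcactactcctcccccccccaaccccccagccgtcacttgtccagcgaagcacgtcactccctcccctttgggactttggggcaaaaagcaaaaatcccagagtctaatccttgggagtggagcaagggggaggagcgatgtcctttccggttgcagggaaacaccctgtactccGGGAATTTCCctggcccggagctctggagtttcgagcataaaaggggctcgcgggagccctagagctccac
Cxcl2: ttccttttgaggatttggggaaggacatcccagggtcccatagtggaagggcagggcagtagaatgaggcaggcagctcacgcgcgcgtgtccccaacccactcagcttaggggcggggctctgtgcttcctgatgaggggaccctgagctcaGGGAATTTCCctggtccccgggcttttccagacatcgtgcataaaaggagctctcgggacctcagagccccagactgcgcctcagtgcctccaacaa
Cxcl3: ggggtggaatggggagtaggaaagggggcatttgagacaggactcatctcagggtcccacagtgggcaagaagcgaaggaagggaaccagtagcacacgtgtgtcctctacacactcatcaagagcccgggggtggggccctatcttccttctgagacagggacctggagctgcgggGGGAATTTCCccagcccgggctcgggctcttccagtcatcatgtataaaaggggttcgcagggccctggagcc

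Of 16 inflammatory cytokine and receptor genes 12 were tested and 7 rose (beside 32.1% of all genes), 4 of them on both scalings (beside 17.1%). The median was 1.51, and 4 rose without mouse 9 or mouse 13, with Il22 not tested in the fit without mouse 13. Il1a, an alarmin form of interleukin 1, was at 2.43, 7.28 and 9.91 TPM at day 6 and 23.3, 273 and 250.3 TPM at day 9 (log2 change 4.13, SE 0.89, adjusted p = 0.00837). Il1b (chr2:129364570-129371139), the secreted form made by myeloid cells, was at 57, 111 and 377 TPM at day 6 and 326, 1592 and 1603 TPM at day 9 (log2 change 2.80, SE 0.78, adjusted p = 0.0235). Mouse 11 was low in both, and its Il1b lay within the day 6 range. Il1b was not called with TMM factors (adjusted p = 0.0744) nor without mouse 8, 9, 12 or 13 (up to 0.0974), and Tnf, which rose by 1.74 on TPM, was not called with TMM factors (adjusted p = 0.0739) nor without mouse 9, 12 or 13 (up to 0.0694). Il22, which acts on epithelium to promote repair, was at 0.538, 0.627 and 0.239 TPM at day 6 and 3.72, 3.62 and 9.46 TPM at day 9 (log2 change 2.07, SE 0.34, adjusted p = 0.00242), and the regulatory cytokine Il10 at 0.767, 0.712 and 2.02 TPM at day 6 and 6.03, 8.01 and 6.77 TPM at day 9 (log2 change 1.92, SE 0.27, adjusted p = 0.00137). The stromal and myeloid cytokines Il6 (5.54, 1.07 and 19.7 TPM at day 6 and 2.41, 6.05 and 7.66 TPM at day 9) and Il11 (3.45, 1.02 and 53.4 TPM at day 6 and 5.42, 8.99 and 8.9 TPM at day 9) were highest in mouse 10 of day 6 and were not called (adjusted p = 0.897 and 0.935). Without mouse 10, Il11 was called higher at day 9 (adjusted p = 0.0208).

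Interferon-stimulated genes split the day 9 mice. Of 14 members 2 rose on TPM (beside 32.1% of all genes) and none with TMM factors. When mouse 11 was left out 12 were called higher, beside 3369 of the 12299 genes tested in that fit. None was called when any other mouse was left out. Cxcl10 (chr5:92346638-92348889), a T cell attractant, was at 4.27, 8.47 and 8 TPM at day 6 and 9.68, 384 and 369 TPM at day 9 (log2 change 3.91, SE 1.23, adjusted p = 0.0368). Isg15, a ubiquitin-like interferon target, was at 37.7, 41.2 and 49.6 TPM at day 6 and 13, 281 and 133 TPM at day 9 (log2 change 0.89, SE 0.93, adjusted p = 0.479), and so lay under day 6 in mouse 11 and above it in mice 12 and 13. Ifng, which encodes interferon gamma, was at 0 to 0.0466 TPM at day 6, 0.246 TPM in mouse 11 and 31.7 and 22.7 TPM in mice 12 and 13; it missed the filter and was not tested. MHC class II genes, which present antigen and respond to that cytokine, gave no limma call among 7 tested on either scaling and 0 at an unadjusted p under 0.05. They gave 5 higher calls without mouse 11. Cd74, the invariant chain, was at 203, 131 and 261 TPM at day 6 and 174, 425 and 485 TPM at day 9.

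Of 16 monocyte and macrophage genes 7 were called higher (beside 32.1% of all genes), 5 on both scalings, with a median of 0.80. Without mouse 10, 13 were called higher, beside 3499 of the 12678 genes tested in that fit. Arg1 (chr10:24915221-24927484), the arginase of alternatively activated and wound macrophages that squamous cells can also make, was at 2.8, 1.33 and 5.69 TPM at day 6 and 92.8, 139 and 52.8 TPM at day 9 (log2 change 4.51, SE 0.44, adjusted p = 0.000538), an average of 3.27 ± 2.22 TPM at day 6 and 94.9 ± 43.2 TPM at day 9 (mean ± SD, n = 3 mice per day). Chil3, a chitinase-like protein of monocytes and neutrophils, was at 4.01, 4.44 and 26.1 TPM at day 6 and 166, 165 and 93.3 TPM at day 9 (log2 change 3.93, SE 0.60, adjusted p = 0.00196), and the endotoxin co-receptor Cd14 at 34.5, 48.4 and 118 TPM at day 6 and 318, 605 and 574 TPM at day 9 (log2 change 3.02, SE 0.44, adjusted p = 0.00157). Ly6c2, the marker of newly arrived monocytes, and Spp1, osteopontin, rose by 2.30 and 2.72. Genes of resident macrophages were not called with all 6 libraries. The differences were, for the complement genes C1qa, C1qb and C1qc, 0.39, 0.46 and 0.45, for Adgre1 0.71 and for Mrc1 0.19, with mouse 10 the highest library of all 6 for C1qa (126, 102 and 245 TPM at day 6 and 235, 148 and 207 TPM at day 9). Without mouse 10, Adgre1, C1qa, C1qb and C1qc were each called higher (adjusted p = 0.0124, 0.0391, 0.022 and 0.0319).

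T cell genes were higher in 7 of 9 tested members (beside 32.1% of all genes), with a median of 1.51. Of these, 6 kept the call with TMM factors and in each leave-one-out fit. The granzymes Gzma and Gzmb, proteases of cytotoxic T and NK cells, were at 1.34, 0.658 and 0.922 TPM at day 6 and 10.4, 39.4 and 16.4 TPM at day 9 (log2 change 3.36, SE 0.43, adjusted p = 0.00101) and 1.21, 0.568 and 1.17 TPM at day 6 and 11.8, 30.7 and 12.9 TPM at day 9 (log2 change 3.19, SE 0.36, adjusted p = 0.000729). Trbc2, a constant segment of the T cell receptor, was at 5.8, 4.34 and 2.45 TPM at day 6 and 14.6, 28.4 and 18.7 TPM at day 9. Mouse 12 was the highest in all 3 genes. Cd4, which is also made by macrophages, was not called (0.02, adjusted p = 0.979), and Cd8a and Foxp3 were below the filter. B and plasma cell genes rose in 6 of 11 tested members on TPM (beside 32.1% of all genes) and in none with TMM factors. Cd79a was at 4.9, 3.58 and 0.377 TPM at day 6 and 7.92, 7.28 and 30.9 TPM at day 9, with mouse 13 far above the rest. None was called without mouse 9 or mouse 13, and 2 without mouse 10 or mouse 12. Jchain, the joining chain of secreted antibodies, fell by 0.81 on both scalings, with an adjusted p of up to 0.0725 without mouse 8 or 10.

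The stroma gave few calls. None of 16 collagen and matrix genes was called by limma on either scaling (3 had an unadjusted p under 0.05 on TPM). The median was 0.47 on TPM and 0.06 with TMM factors. Without mouse 12, 7 were called higher on TPM, beside 4092 of the 12400 genes tested in that fit. The days overlapped in all 16. Col1a1, the main chain of fibrillar collagen, was at 21.2, 18.6 and 26 TPM at day 6 and 21.1, 17.7 and 37 TPM at day 9 (log2 change 0.14, SE 0.28, adjusted p = 0.715). Metalloproteinases and their inhibitors gave 3 rises among 11 (27.3%), beside 32.1% of all genes, so this share was near the background. Mmp7, matrilysin, was near 0 at day 6 and rose on both scalings (0.063, 0.11 and 0.0631 TPM at day 6 and 2.91, 4.01 and 1.96 TPM at day 9, log2 change 1.84, SE 0.23, adjusted p = 0.000955), as did the inhibitor Timp3 (0.90). Mmp14 rose by 1.14 on TPM only, and 1 member was called without mouse 13, a fit in which Mmp7 was not tested. Mmp10 (22.2, 12.6 and 299 TPM at day 6 and 85.4, 84.9 and 70.6 TPM at day 9), Mmp3 (74.5, 47.3 and 356 TPM at day 6 and 73.3, 78.6 and 98.9 TPM at day 9) and Mmp13 (22.6, 11.2 and 228 TPM at day 6 and 56.3, 101 and 66.7 TPM at day 9), which remodel the wound matrix, were all highest in mouse 10, and 7 list members were called higher without it. Stromal growth signals rose in 2 of 17 tested members, Nrg1 by 1.40 and Tgfb1 by 1.34, both on TPM only and both lost without mouse 8, 9, 12 or 13 (adjusted p up to 0.111 and 0.0983); 5 were called without mouse 10 and 4 without mouse 12. The stem cell niche factors Rspo3 and Grem1 were not called at 0.10 and 0.50. Of the endothelial list only Pecam1, which leukocytes also carry, was called (9.86, 7.22 and 20.7 TPM at day 6 and 17.4, 167 and 103 TPM at day 9, log2 change 2.45, SE 0.75, adjusted p = 0.0341), on TPM and not with TMM factors or without mouse 8, 9, 12 or 13. The vessel genes Cdh5, Kdr, Tek and Tie1 were not called with all 6 libraries and lay between 0.775 and 4.71 TPM. Without mouse 12, Cdh5 and Tie1 were called higher (adjusted p = 0.0178 and 0.0369), and without mouse 11, Vwf was (adjusted p = 0.0349).

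Lists of hypoxia, chaperone and cholesterol synthesis genes had median changes of 0.26, 0.55 and 0.36, beside 0.37 over all genes. Hypoxia and glycolysis genes gave 2 rises and 2 falls among 12, with Pfkfb3, an enzyme that sets the glycolytic rate in activated cells, at 6.91, 5.32 and 21.3 TPM at day 6 and 34.6, 84.5 and 75.2 TPM at day 9 (log2 change 2.57, SE 0.50, adjusted p = 0.00559) and Ldha not called at -0.08; without mouse 11, 5 rose. Chaperones and the unfolded protein response gave 5 rises among 12 on TPM (beside 32.1% of all genes), none with TMM factors and none without mouse 8 or mouse 9. Cholesterol synthesis gave 3 rises on TPM (1 without mouse 9, 10, 11 or 13), and with TMM factors 1 rise and 4 falls among 13. Idi1, the isomerase of the isoprenoid route, rose by 1.09 on both scalings.

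Squamous genes were measured because the rectum borders the anal epithelium. Of 12 members 7 were tested and 6 rose (beside 32.1% of all genes), 5 on both scalings (beside 17.1%), with a median of 2.81. Dsg3, among these 5, passed the filter only through day 9. The list's summed level was 48.5, 19.3 and 64.8 TPM at day 6 and 835, 228 and 187 TPM at day 9. Krt5, the keratin of basal squamous cells, was at 0.314, 0.112 and 4.18 TPM at day 6 and 131, 15.3 and 17.4 TPM at day 9 (log2 change 4.11, SE 0.86, adjusted p = 0.00748), and Krt6a, a keratin of activated squamous epithelium, at 0.426, 0.144 and 2.97 TPM at day 6 and 167, 29.9 and 23.3 TPM at day 9 (log2 change 4.75, SE 0.75, adjusted p = 0.00214). Each day 9 library exceeded each day 6 library (beside 42.4% of all genes), and mouse 11 was the highest by far. Krt6a has close copies, so its assignment is less certain. In anal sections of the same days Krt5 ranged from 1182 to 2659 TPM, well above any rectal library. Trp63, the transcription factor that defines squamous stem cells, was at most 1.53 TPM and was not tested. At day 0 the rectal libraries ranged from 0.613 to 9.44 TPM for Krt5 and from 1.06 to 18.3 TPM for Krt6a, below every day 9 library. They ranged from 2.76 to 45 TPM for Krt13, a keratin of moist squamous epithelium, which overlapped its 102, 13.6 and 13.3 TPM at day 9. The part of squamous cells in the other changes was not tested. Smooth muscle genes gave no limma call among 8 on either scaling, and 0 at an unadjusted p under 0.05. Their sum was 1573, 1437 and 1171 TPM at day 6 and 1451, 254 and 1464 TPM at day 9. Skeletal muscle genes gave none among 4 (0 at an unadjusted p under 0.05), with a sum of 145 TPM in mouse 13 against 5.26 to 19.6 TPM in the other libraries. Haemoglobin genes, a measure of blood in the tissue, gave 1 call among 5 on TPM (Hbb-bs, 107, 200.2 and 757 TPM at day 6 and 1296, 602 and 1208 TPM at day 9), lost with TMM factors and without mouse 8, 9, 11 or 13, and 5 calls without mouse 10. The 4 glial, neuronal and adipose genes tested gave no call (0 at an unadjusted p under 0.05), and the fat cell gene Plin1 was listed at 0 in all 6 libraries.

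The 8 largest rises and 8 largest falls were then taken, with list members included. They were chosen among well expressed genes called on TPM whose groups did not overlap, so their call on TPM was fixed by the choice. All were also called with TMM factors and in each leave-one-out fit that tested them. The rises included 3 genes that neutrophils express strongly, the protease inhibitors Stfa2 (0, 0 and 3.11 TPM at day 6 and 164, 61.3 and 61.1 TPM at day 9, log2 change 5.75, SE 0.60, adjusted p = 0.000596) and Stfa3 and the granule protein Ngp (0.226, 0.246 and 1.52 TPM at day 6 and 74, 48.4 and 22.4 TPM at day 9, log2 change 4.82, SE 0.46, adjusted p = 0.000497). Stfa2 and Stfa3 are copies of one another, so the split between them is uncertain. Acod1, the itaconate-producing enzyme of activated macrophages, was at 2.71, 13 and 14.4 TPM at day 6 and 84.2, 546 and 442 TPM at day 9 (log2 change 4.89, SE 0.77, adjusted p = 0.00212), and Ccl4, a chemokine for T cells and monocytes, at 5.1, 15.2 and 11.6 TPM at day 6 and 36.7, 567 and 702 TPM at day 9 (log2 change 4.52, SE 1.01, adjusted p = 0.00962). Mouse 11 was the lowest day 9 library in both, as it was for Il1a and Il1b. Pla2g2a, a bactericidal phospholipase that GENCODE lists as a polymorphic pseudogene because C57Bl/6 carries a disrupted copy, was at 3.38, 0.328 and 0.753 TPM at day 6 and 56, 36.9 and 47.6 TPM at day 9 (log2 change 4.44, SE 0.42, adjusted p = 0.000497). Arg1 and Krt6a complete the rises. The falls were led by Cyp2c55 and held 3 other colonocyte genes given above (Slc37a2, Slc26a3 and Guca2a). Mptx1, a mucosal pentraxin, was at 384, 427 and 672 TPM at day 6 and 48.3, 33.9 and 35.4 TPM at day 9 (log2 change -3.60, SE 0.24, adjusted p = 0.000362), and the sulfotransferase Sult1d1 at 228, 308 and 167 TPM at day 6 and 42.4, 11.6 and 11.5 TPM at day 9 (log2 change -3.59, SE 0.47, adjusted p = 0.00111). Eno3, an enolase best known from muscle, was at 305, 322 and 270.3 TPM at day 6 and 29.3, 22 and 65.4 TPM at day 9. Tnni1, a troponin best known from muscle, was at 174, 215 and 169 TPM at day 6 and 26.4, 19.4 and 21.9 TPM at day 9. A call on TPM and a lack of overlap between the days were conditions for naming these genes. The part of muscle RNA in their values was not tested.

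The other 13 rectal libraries give the range in which these values lie, as a description without a test. Mki67 ranged from 14.1 to 16.3 TPM at day 0, 1.09 to 3.01 TPM at day 3, 12.2 to 19.6 TPM at day 14 and 11.9 to 26.5 TPM at day 20, so the day 9 libraries lay above every other day. Nop56 was likewise at 27.6 to 36.1 TPM at day 0 and at most 77.5 TPM at days 14 and 20. Slc26a3 ranged from 1011 to 1291 TPM at day 0, 979 to 1319 TPM at day 3, 284 to 777 TPM at day 14 and 412 to 998 TPM at day 20, and day 9 held its lowest levels. Car1 at day 9 overlapped day 14 (733 to 2452 TPM). S100a8 was at most 4.29 TPM at days 0 and 3, and ranged from 72.9 to 2032 TPM at day 14 and 8.26 to 238 TPM at day 20. Arg1 spread from 1.13 to 239 TPM over the mice of day 14, wider than at day 9.

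**Figure D4:**
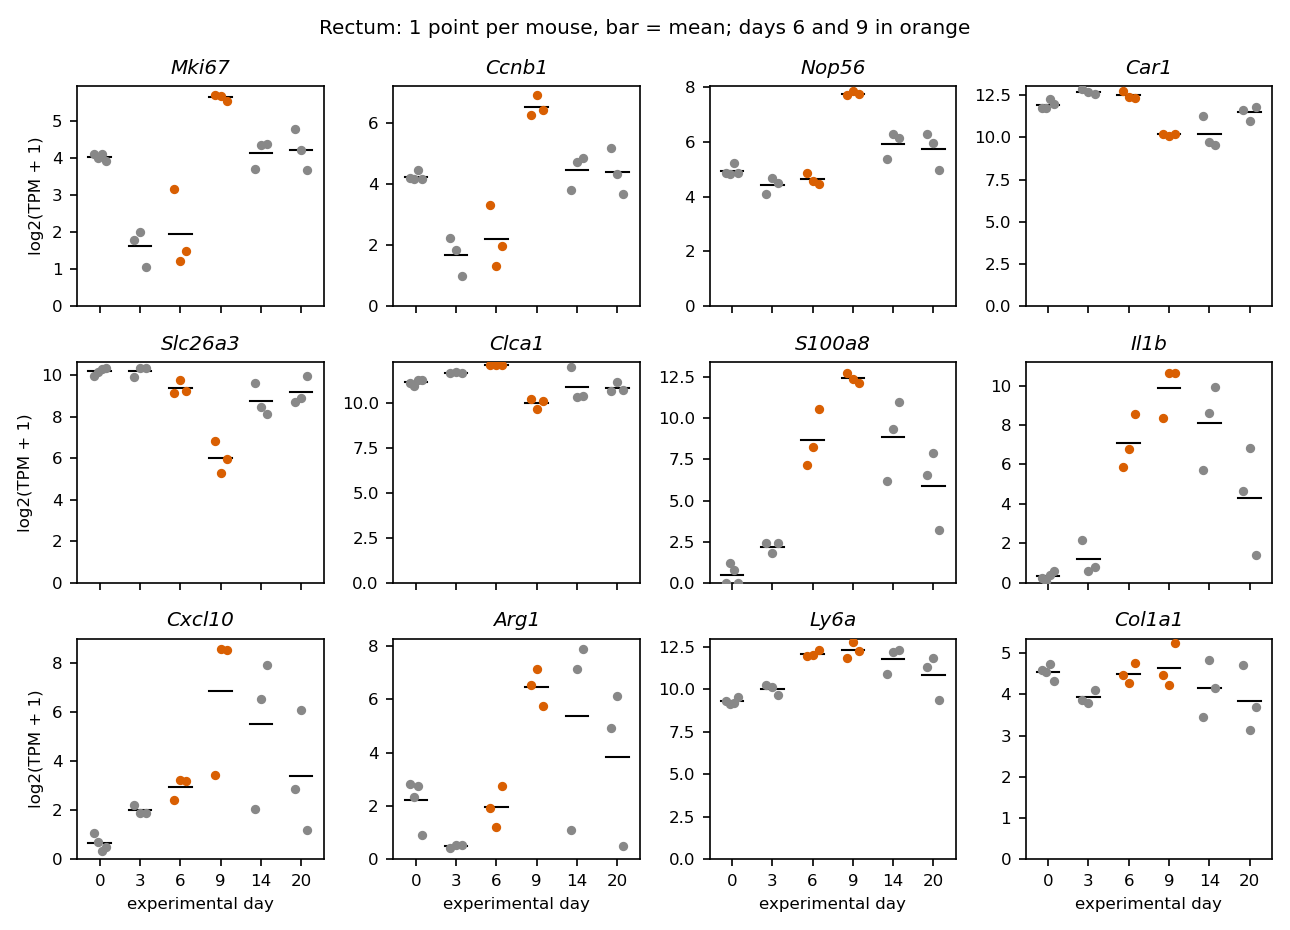
Levels of 12 genes in all 19 rectal libraries as log2(TPM + 1) (vertical axis) against experimental day (horizontal axis, categories), one point per mouse, with the bar at the mean and days 6 and 9 in orange. Mki67, Ccnb1 and Nop56 have their highest points at day 9, Slc26a3 its lowest, Cxcl10 has one low mouse at day 9 (9.68 TPM against 384 and 369 TPM), and Ly6a and Col1a1 overlap between days 6 and 9.

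The mid-colon sections of the same 6 mice were used to ask whether the change was particular to the rectum. In mid-colon 4919 of 12131 genes tested (40.5%) were called between the same days, 3794 (31.3%) higher and 1125 (9.27%) lower. The test of the difference between the sections, rectum minus mid-colon, called none of 13288 genes (limma; 1199 had an unadjusted p under 0.05, and TMM factors also gave no call). With the mouse as a replicate block, which the shared animals justify, 1 gene was called (0.00753%). That gene was Arg1. It rose in rectum from 2.8, 1.33 and 5.69 to 92.8, 139 and 52.8 TPM and in mid-colon was 0.0663 to 2.4 TPM at day 6 and 1.13 to 3.66 TPM at day 9, a difference of 3.61 between the changes (SE 0.71, adjusted p = 0.165; with the block SE 0.24, adjusted p = 0.00117). Without the block, leaving out mouse 11 from both sections gave 19 calls and leaving out mouse 13 gave 2.

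Side by side, the lists moved as follows in mid-colon. All 26 cell cycle genes and all 14 ribosome biogenesis genes rose there too, for example Ccnb1 by 5.02 beside 4.31 in rectum and Nop56 by 3.83 beside 3.12. Colonocyte genes gave 13 falls and 1 rise among 20, and goblet cell genes 7 falls among 15, with Clca1 at -1.76 and Tff3 at -1.43, beside -2.13 and -1.98 in rectum. Neutrophil genes rose in 13 of 16 members. S100a8 changed by 3.78 in both sections, but its mid-colon level at day 9 was 226 to 1012 TPM, under the rectal 6975, 5487 and 4504 TPM. Macrophage genes gave 4 rises and 3 falls there, such as Lyz2 at -1.09 (adjusted p = 0.00362) beside 0.26 in rectum, and collagen genes 6 falls and no rise, such as Col3a1 at -1.10 (adjusted p = 0.02) beside 0.05. For neither gene was the difference between sections called (adjusted p = 0.246 and 0.46).

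**Figure D5:**
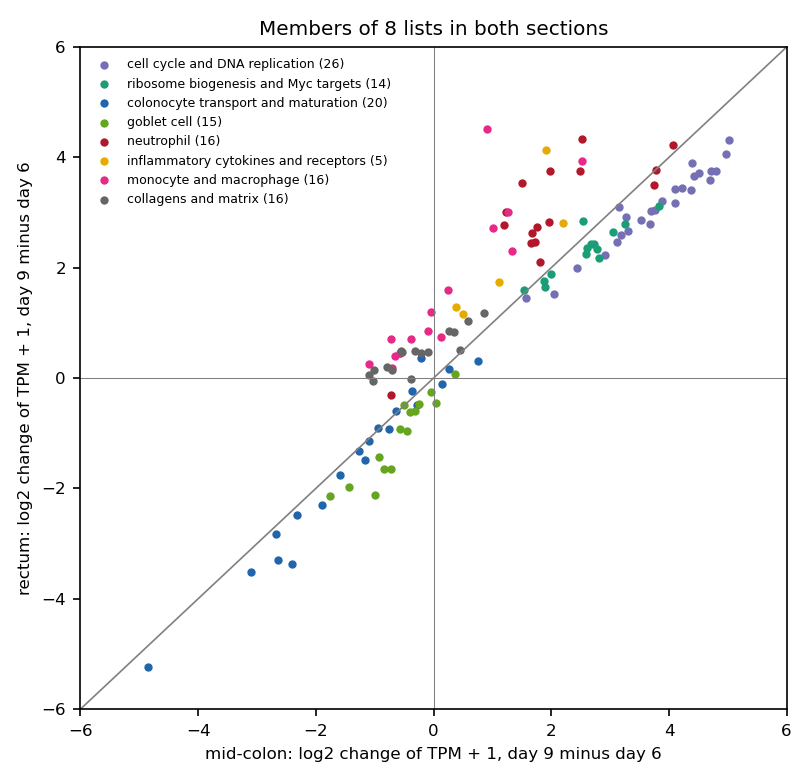
Log2 change of TPM + 1 from day 6 to day 9 in rectum (vertical axis) against that in mid-colon (horizontal axis) for members of 8 lists tested in both sections, one point per gene, with the line of equal change in grey; both axes come from the same 6 mice. Cell cycle points lie at or under the line, colonocyte points follow it down to Cyp2c55, and the point highest above it at a small mid-colon change is Arg1 (4.51 in rectum, 0.91 in mid-colon).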

How the data were processed

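RNA was sequenced from sections of mouse colon, rectum and anus. The authors deposited one table of TPM per Ensembl transcript; kallisto, CASAVA and mm10 are named per the submitters' processing notes, without versions or a transcript index. Of 126860 rows, 37344 had no values and 1318 repeated a transcript and were dropped; the repeats lift the deposited column sums above the TPM total. TPM was summed over the remaining 88198 transcripts into 30452 genes; 1284 transcripts without a gene identifier (0.579 to 1.04% of TPM in the 6 libraries) were left out. Genes with at least 1 TPM in at least 3 of the compared libraries were fitted as log2(TPM + 1) with limma 3.58.1 (R 4.3.3, empirical Bayes with a trend), day 9 against day 6, with Benjamini-Hochberg adjustment at 0.05. The fit was tested on simulated data. Depth is unknown, as TPM keeps no counts.

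The difference between sections was an interaction term over 12 libraries. Same-numbered sections are the same mouse, and their deviations from the group means correlated at 0.159 to 0.51 per mouse over 13288 genes. Alternatives were TMM factors (0.82 to 0.90 at day 6, 1.01 to 1.29 at day 9) and median centring, other filters, a pseudocount of 0.1, all 19 rectal libraries, another prior, a 2-fold minimum, the mouse block, and leaving out each mouse. Members and lists were chosen with earlier results of these data known. Any list gene could be named. The 8 largest rises and 8 largest falls called, list members included, could be named too. Conditions were a mean of at least 8 TPM in the higher group, no overlap and a proper symbol. The same conditions held for the 3 largest interactions each way, of which there were none without the block. Some list members are not reported here by name.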

Additional observations from a re-analysis of the deposited data

Results flagged for a closer look

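Arg1, arginase 1, was called as changing differently in rectum and mid-colon between day 6 and day 9 only with the mouse as a replicate block. The difference between the log2 changes, rectum minus mid-colon, was 3.61 with the mouse as a replicate block (SE 0.24, adjusted p = 0.00117, limma with Benjamini-Hochberg adjustment over 13288 genes). Without the block the same difference had an SE of 0.71 and an adjusted p of 0.165. Rectal Arg1 was at 2.8, 1.33 and 5.69 TPM at day 6 and 92.8, 139 and 52.8 TPM at day 9, and in mid-colon the highest of all 6 libraries was 3.66 TPM. All 3 rectal libraries of day 9 exceeded all 9 others. The squamous keratins Krt6a and Krt5 differed between sections in the same direction without being called. The differences were 3.85 for Krt6a (adjusted p = 0.069 with the block) and 4.15 for Krt5 (adjusted p = 0.0714 with the block), and their part in the Arg1 result was not tested.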

How the results depend on the processing

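Leaving out each mouse in turn gave 3034 to 4707 genes called between day 6 and day 9 in rectum, 2477 to 4092 higher and 404 to 823 lower, against 4866, 4115 and 751. The lowest totals were 3034 without mouse 13 and 3190 without mouse 9; the lower calls were 470 and 404 without mouse 8 and mouse 9, and the higher calls 2477 without mouse 13. With TMM factors 2196 genes were higher and 2090 lower, with median centring 1768 and 2677, and a 2-fold minimum left 2737. The other filters, the pseudocount, the prior and all 19 rectal libraries gave 3886 to 5906. The 375 genes followed were the tested list members and the largest rises and falls. None that was called in the main fit or in the alternative changed sign between them. Genes called in neither fit could change sign, such as Mdm2 at 0.41 on TPM and -0.02 with TMM factors. Of the 375, TMM factors ended the call of 44 and added 25. The difference between sections had no call without the block, 1 with the mouse as a replicate block, 3 without a filter, 1 with a pseudocount of 0.1, and 0 to 19 leaving out a mouse (19 without mouse 11, 2 without mouse 13); the cause was not tested. The comparison of days in rectum has no pairs, since each day holds different mice. With 3 mice per day and unknown depth, a missing call does not show an equal level.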

Other observations

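The genes here lie outside the lists and were chosen after their values were seen. They are single genes, and no statement about a pathway is made from them. Phgdh, the first enzyme of serine synthesis, was at 1.98, 1.85 and 1.45 TPM at day 6 and 18.6, 20.6 and 36 TPM at day 9 (log2 change 3.19, SE 0.27, adjusted p = 0.000477), Psat1 at 10.7, 9.92 and 10 TPM at day 6 and 49.1, 50.3 and 61.9 TPM at day 9 (log2 change 2.28, SE 0.17, adjusted p = 0.000395) and Shmt1, which passes serine carbon to folate, at 7.94, 4.89 and 4.03 TPM at day 6 and 62.2, 40.4 and 64.2 TPM at day 9 (log2 change 3.11, SE 0.28, adjusted p = 0.000478). Mthfd2, a mitochondrial enzyme of the folate cycle, changed by 1.91, the amino acid transporters Slc7a5 and Slc7a11 by 2.03 and 2.52, and the mitochondrial chaperone Hspd1 by 3.14 (40.4, 27.2 and 26.3 TPM at day 6 and 272, 259.8 and 308 TPM at day 9). All of these were called on both scalings.

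Cldn2, a pore-forming claudin, was at 0.795, 0.185 and 0.177 TPM at day 6 and 30.6, 14.9 and 26.3 TPM at day 9 (log2 change 4.14, SE 0.31, adjusted p = 0.000396), and Gpx2, the glutathione peroxidase of gut epithelium, at 242, 149 and 145 TPM at day 6 and 1505, 2858 and 2061 TPM at day 9 (log2 change 3.57, SE 0.28, adjusted p = 0.000421). Lypd8, a flagellin-binding protein that keeps bacteria from the colonic surface and the most abundant of the genes named here, was at 43890, 51030 and 49920 TPM at day 6 and 15720, 14760 and 12950 TPM at day 9 (log2 change -1.74, SE 0.17, adjusted p = 0.000538). The epithelial cytokine Il18 was at 256, 277 and 238 TPM at day 6 and 49.1, 67.1 and 36.3 TPM at day 9 (log2 change -2.36, SE 0.22, adjusted p = 0.000497), Nlrp6 at 35.8, 53.8 and 20.3 TPM at day 6 and 6.09, 7.84 and 8.24 TPM at day 9 (log2 change -2.07, SE 0.33, adjusted p = 0.00223) and Gsdmc4, a gasdermin with close copies beside it, at 791, 775 and 622 TPM at day 6 and 65.2, 167 and 100.4 TPM at day 9 (log2 change -2.80, SE 0.31, adjusted p = 0.000663). Reg4, a lectin of secretory cells, was at 32.6, 8.21 and 8.27 TPM at day 6 and 166, 89.1 and 140.4 TPM at day 9 (log2 change 3.18, SE 0.49, adjusted p = 0.00203). Each of these was called on both scalings.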
